A study of Mus musculus with 8 samples.

Results

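The Akr1c genes encode a cluster of aldo-keto reductases on mouse chromosome 13, and their expression was followed in pre-neoplastic epidermis with and without the histone methyltransferase G9a. The members were all probe sets that the platform annotation assigns to Akr1c6, Akr1c12, Akr1c13, Akr1c14, Akr1c18, Akr1c19, Akr1c20 or Akr1c21. These were 9 of 45037 probe sets tested and stood for 7 of the 8 genes, since no probe set is named for Akr1c21 in the annotation used here. The family was singled out because Akr1c12 and Akr1c13 were known to be among the strongest differences of this same comparison, so their differences are given as a description and support nothing further.

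Each of 8 samples of cells from interfollicular epidermis (the epithelium of the skin outside its hair follicles) was hybridised to its own 1-colour array. The cKO group held 4 samples from mice with a conditional knockout of G9a, the enzyme encoded by Ehmt2, and the WT group 4 samples from G9a wild-type mice. All animals of both groups had received DMBA (0.25 mg/ml) and TPA (0.02 mg/ml), 200 µl of each on shaved back skin weekly for 6 weeks from 8 weeks of age, and are labelled as 15 weeks old. The sources used here do not give the recombinase, its promoter or the deleted part of Ehmt2. Nothing says whether each sample is a separate animal, so a p-value reflects only how far these samples spread, which may be technical.

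Aldo-keto reductases reduce aldehydes and ketones to alcohols with NADPH, or run the reverse reaction. Members of the Akr1c branch act on hydroxyl and keto groups of steroid hormones, on prostaglandins and on foreign compounds, and the human AKR1C enzymes also oxidise dihydrodiols of polycyclic aromatic hydrocarbons, the class of carcinogens to which DMBA belongs. G9a places mono- and dimethylation on lysine 9 of histone H3, a mark of silenced genes.

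In chromosomal order the genes run Akr1c14, Akr1c18, Akr1c13, Akr1c19, Akr1c12, Akr1c6, Akr1c20 and Akr1c21, so that Akr1c19 lies between Akr1c13 and Akr1c12. The 250 bases before the RefSeq start (build GRCm38.p6) are shown for these 3 genes and for Akr1c18, because Akr1c13 and Akr1c12 read higher in cKO while Akr1c19 and Akr1c18 did not pass the test. They lie at chr13:4190937-4191186 (plus strand) for Akr1c13, chr13:4279400-4279649 (minus strand) for Akr1c12, chr13:4233490-4233739 (plus strand) for Akr1c19 and chr13:4150647-4150896 (minus strand) for Akr1c18. Each is written 5′ to 3′ along its gene, with the hexamer CATTAG, searched on both strands, in capitals.
Akr1c13: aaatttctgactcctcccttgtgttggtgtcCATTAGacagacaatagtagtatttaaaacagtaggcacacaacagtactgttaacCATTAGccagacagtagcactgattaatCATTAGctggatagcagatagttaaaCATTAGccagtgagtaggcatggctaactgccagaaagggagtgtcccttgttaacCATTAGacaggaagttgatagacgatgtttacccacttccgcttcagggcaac
Akr1c12: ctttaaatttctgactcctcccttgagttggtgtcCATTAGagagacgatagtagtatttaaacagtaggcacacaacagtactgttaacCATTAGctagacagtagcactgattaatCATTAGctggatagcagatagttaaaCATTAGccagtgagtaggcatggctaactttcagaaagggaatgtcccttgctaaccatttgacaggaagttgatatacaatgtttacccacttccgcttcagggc
Akr1c19: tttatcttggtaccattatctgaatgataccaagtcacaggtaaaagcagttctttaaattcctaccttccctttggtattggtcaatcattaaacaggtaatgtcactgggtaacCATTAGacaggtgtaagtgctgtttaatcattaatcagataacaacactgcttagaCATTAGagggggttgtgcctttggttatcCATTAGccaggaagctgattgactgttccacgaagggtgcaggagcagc
Akr1c18: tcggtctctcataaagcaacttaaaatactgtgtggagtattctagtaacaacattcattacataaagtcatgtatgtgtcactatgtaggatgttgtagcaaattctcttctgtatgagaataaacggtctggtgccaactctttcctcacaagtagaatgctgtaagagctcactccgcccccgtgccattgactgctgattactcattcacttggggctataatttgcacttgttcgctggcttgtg

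The stretches before Akr1c13 and Akr1c12 are near copies of each other. In a global alignment 235 of 250 columns were identical (94.0%), with 11 mismatches and 4 gap columns. Akr1c19 was the next most alike, with 60.8% identical columns against Akr1c13 and 59.2% against Akr1c12. The other 18 pairs among the 7 member promoters in the table ranged from 48.0% to 57.3%, and Akr1c13 against 17 neighbouring genes outside the family from 46.1% to 54.1%. The matrix of promoter identities shows this single bright pair.

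**Figure D1:**
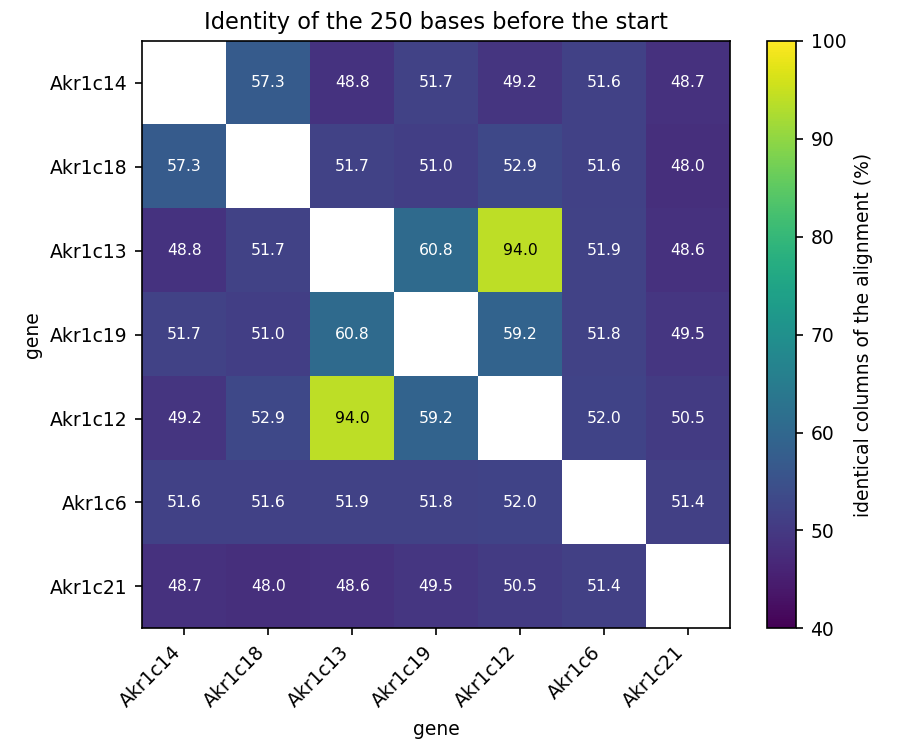
Share of identical alignment columns (%, colour and printed values) between the 250 bases before the start of 7 Akr1c genes, in chromosomal order on both axes; white cells are a gene against itself. Akr1c13 and Akr1c12 share 94.0% and each shares about 60% with Akr1c19 (60.8% and 59.2%), while the other pairs lie between 48.0% and 57.3%.

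The hexamer CATTAG recurs in 3 of the 4 printed stretches. It was found 5 times before Akr1c13, 4 times before Akr1c12, 3 times before Akr1c19, once before Akr1c6 and once before Akr1c21, and not in the stretches of Akr1c14 and Akr1c18. Of 32851 promoters of the same length, 6.36% hold it at least once and 8, or 0.0244%, at least 3 times. Those 8 belong to Akr1c13, Akr1c12, Akr1c19, Gm34098, Cyp2c39, Fmo9, Gm34385 and Gm51672. The hexamer was picked after these sequences had been read, and Akr1c19 holds it without having passed the expression test, so the count describes the sequence and nothing else.

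The other 6 motifs were searched on both strands. TGACNNNGC, the core of the antioxidant response element, TGANTCA, the AP-1 site, and GCGTG, the core of the aryl hydrocarbon response element, had no match in any of the 7 member promoters and occur in 10.2%, 6.75% and 28.2% of all promoters. CGGAAG, an ETS core, had 1 match each before Akr1c13 and Akr1c12 and none before the other 5, against 13.6% of all promoters with a match. Both matches lie in a run of bases that the near copies share, so they do not count as separate occurrences. No motif was tested against expression. TATAAA was matched before Akr1c6 (12.4% of all promoters), and CCAAT before Akr1c14, Akr1c19 and Akr1c6 (33.8%). The member promoters held between 0 and 5 CG dinucleotides, with 2 each for Akr1c13 and Akr1c12, where the median over all promoters was 6.

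Before the expression of the members is described, the arrays themselves need a word. The array medians were alike (5.72 to 5.80, log2). On the first principal component (36.9% of the variance) WT 4 stood at 23.5, beyond all cKO arrays and far from WT 1 to 3 (-20.6 to -11.4), and cKO 2 stood at -10.7, near WT 1 to 3. On the second (23.0%) the groups were apart, at 7.35 to 20.0 in cKO and -21.2 to -2.58 in WT. There cKO 2 and WT 4 were the arrays farthest from the other group. Values are also given without these 2 arrays where they bear on a result. The targeted gene checks the labels at 1 of its 2 probe sets: Ehmt2 (1460692_PM_at) read 6.30 to 7.07 in cKO and 9.25 to 9.77 in WT, while the other probe set did not differ by group. Of 19 probe sets of 12 keratinocyte marker genes, the lowest, that of Flg, averaged 4.72 and the median one 11.4, and the basal keratin gene Krt5 read 12.6 ± 0.05 (SD, n = 4) in cKO and 12.6 ± 0.04 (SD, n = 4) in WT. Of 140 probe sets for 96 marker genes of other cell types the preparation could hold (11 lists), 0 passed limma's test, with 12 (8.57%) at an unadjusted p under 0.05, where 0.466% and 7.98% of all probe sets did so, and the mean level of every list overlapped between the groups. The list with the largest median difference, 0.13, was that of Langerhans and dendritic cells, with mean levels of 7.18 to 7.74 in cKO and 6.84 to 7.62 in WT. Cd207, its defining marker, read 4.65 ± 0.12 (SD, n = 4) in cKO and 4.62 ± 0.08 (SD, n = 4) in WT, a level not shown to lie above background and so no measure of these cells. The list's part in the results below was not tested. In a bulk sample of cells, fewer cells of a type and less RNA per cell cannot be told apart.

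Akr1c13 and Akr1c12 read far higher in every cKO array than in any WT array, while none of the other 5 measured genes did so. Of the 9 probe sets, 3 passed the test over all probe sets, all of them higher in cKO, by limma with a Benjamini-Hochberg threshold of 0.05, where 0.466% of all probe sets passed, 0.393% as higher and 0.0733% as lower. The same 3 were those whose groups did not overlap, where 4.89% of all probe sets had groups that did not, and 3.17% with cKO above WT. Both shares stand here as background only, since the family was chosen on this contrast. The median difference over the 9 probe sets was 0.07, against 0.01 over all probe sets (log2, cKO minus WT).

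**Figure D2:**
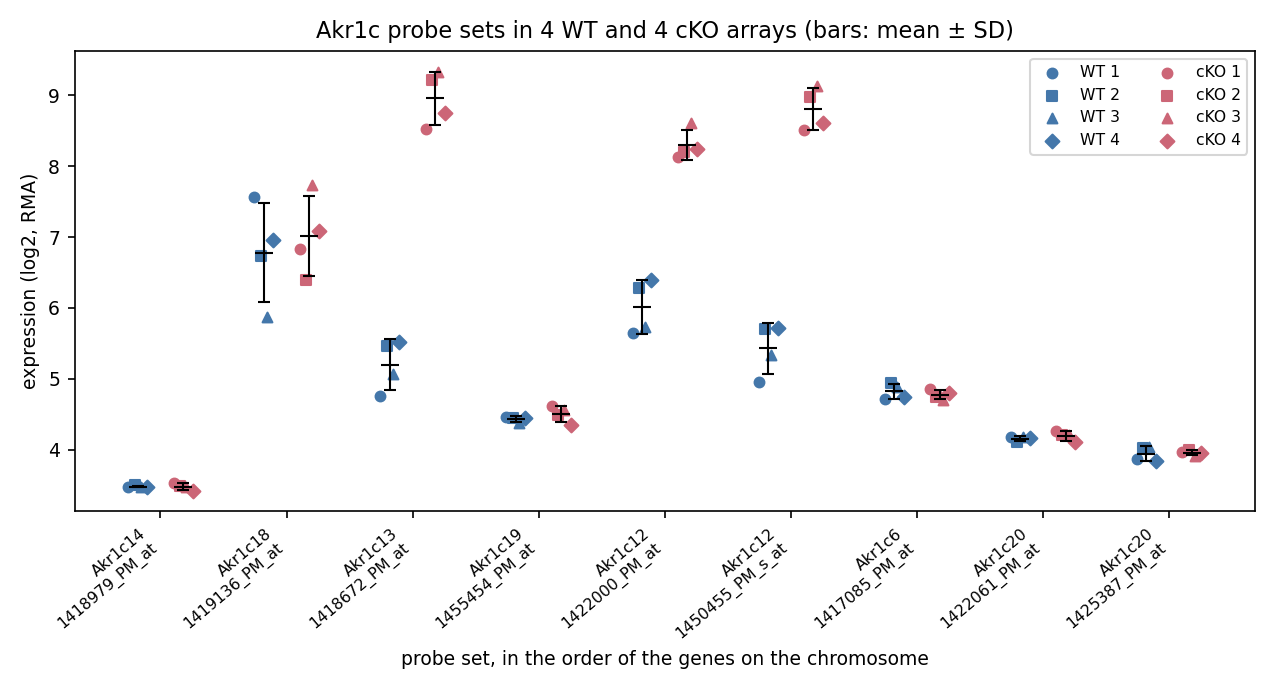
Expression (log2, RMA) of the 9 Akr1c probe sets, in chromosomal order of the genes, in 4 WT (blue) and 4 cKO (red) arrays; symbols mark the replicate number and bars give mean ± SD. The groups are apart for Akr1c13 and both probe sets of Akr1c12 and overlap for the other 6, among which Akr1c18 spreads most, from 5.87 to 7.73.

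Akr1c13, whose product is a dehydrogenase of alcohols and hydroxysteroids, was measured by 1 probe set, 1418672_PM_at. It read 8.53, 9.21, 9.33 and 8.75 in cKO 1 to 4, and 4.76, 5.46, 5.07 and 5.51 in WT 1 to 4 (log2). A gap of 3.01 separated the lowest cKO array from the highest WT array. The group means were 8.95 ± 0.38 and 5.20 ± 0.36 (SD, n = 4 each), a difference of 3.75 (SE 0.21) or 13.5-fold. Only 2 of the 45037 probe sets had a larger rise.

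Akr1c12, the near relative of Akr1c13, was measured by 2 probe sets, and both separated the groups. Probe set 1450455_PM_s_at read 8.51, 8.97, 9.13 and 8.61 in cKO 1 to 4 and 4.96, 5.71, 5.34 and 5.71 in WT 1 to 4. Its means were 8.81 ± 0.29 in cKO and 5.43 ± 0.36 in WT, a difference of 3.38 (SE 0.19) or 10.4-fold. Its suffix marks a set whose probes match more than 1 transcript.

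The second probe set of Akr1c12, 1422000_PM_at, read 8.13, 8.19, 8.61 and 8.24 in cKO 1 to 4 and 5.64, 6.28, 5.73 and 6.40 in WT 1 to 4. The lowest cKO array stood 1.73 above the highest WT array. Its means were 8.30 ± 0.22 and 6.01 ± 0.38, a difference of 2.28 (SE 0.18) or 4.86-fold. The 95% interval of this difference, 1.87 to 2.69, lay below that of 1450455_PM_s_at, 2.95 to 3.81, so the 2 probe sets named for the same gene gave different sizes. Akr1c12 and Akr1c13 are close in sequence, and how much each transcript adds to each of the 3 probe sets was not tested.

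The WT levels of these 3 probe sets, from 4.76 to 6.40, were not shown to lie above background, since the table carries no detection calls. A fold change from such a level may understate the true ratio.

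Single arrays moved together in the 3 probe sets. After subtraction of the group means, the deviations of Akr1c13 and of Akr1c12 at 1450455_PM_s_at correlated over the 8 arrays with r = 0.98, and those of 1422000_PM_at with r = 0.83 and r = 0.87 against these 2 (a description, since the points share arrays and possibly transcripts). WT 2 and WT 4 lay above the WT mean and WT 1 and WT 3 below it at all 3. In cKO, cKO 3 was the highest array and cKO 1 the lowest at all 3, while cKO 2 was above its group mean at 1418672_PM_at (0.26) and below it at 1422000_PM_at (-0.10).

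Ehmt2 moved the other way within WT. Its probe set 1460692_PM_at deviated by 0.28 in WT 1, -0.24 in WT 2, 0.20 in WT 3 and -0.23 in WT 4, so that the arrays with less Ehmt2 signal were the ones with more Akr1c13. In cKO the deviations were 0.46, 0.11, -0.26 and -0.31, and only cKO 1 and cKO 3 had signs opposite to those of Akr1c13. The deviations are a description, with no test.

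**Figure D3:**
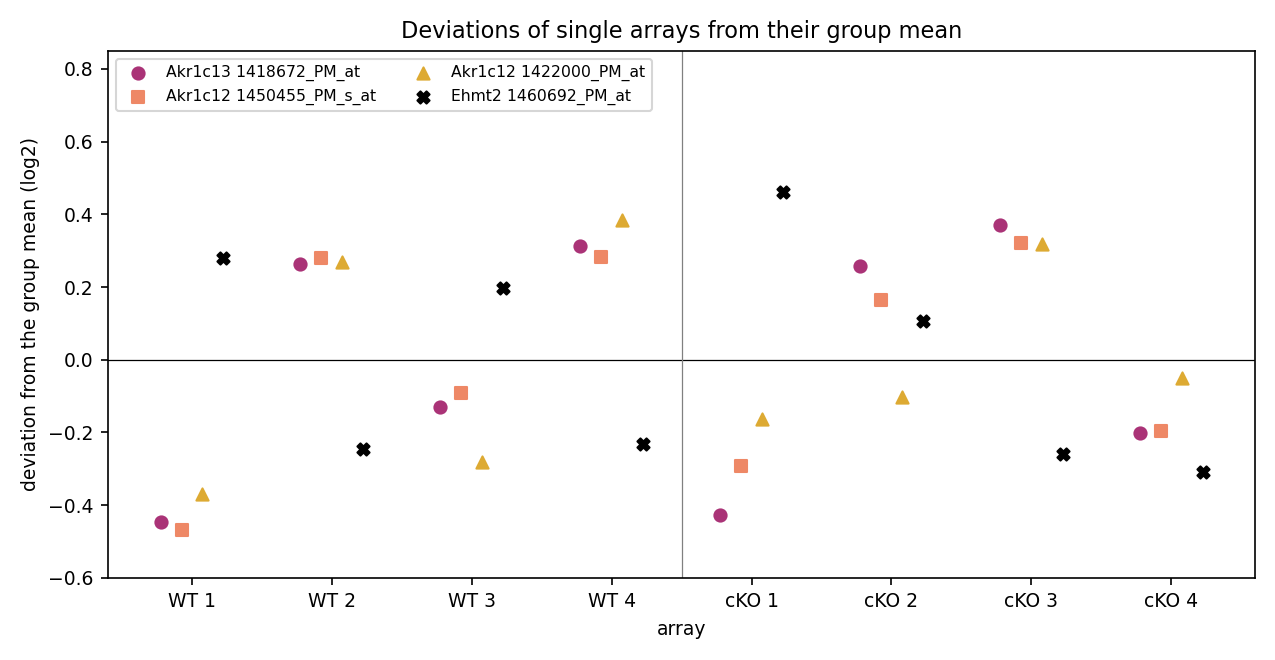
Deviation of each array from the mean of its group (log2) for the 3 Akr1c12 and Akr1c13 probe sets and for Ehmt2 at 1460692_PM_at. In WT the 3 Akr1c probe sets are positive in WT 2 and WT 4, where Ehmt2 is negative; in cKO they are highest in cKO 3, and cKO 2 and cKO 4 show no such opposition for Akr1c13.

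Genes with the most similar pattern were sought among 353 probe sets of single genes outside the family whose range over the arrays was at least 1 (log2). The 6 genes closest to Akr1c13 over 8 arrays were Gm8126 (r = 0.998), Lrp11 (0.998), Snurf (0.997), Gpa33 (0.997), Efcab1 (0.997) and Snrpn (0.996). All of these differ between the groups, which alone gives high values. With the group means removed, r was 0.96 for Gm8126, 0.96 for Lrp11, 0.90 for Snurf, 0.90 for Gpa33, 0.89 for Efcab1 and 0.86 for Snrpn, again over 8 arrays. The 6 genes were picked on the correlation over all arrays, which these deviations enter. High values were thus partly fixed by the choice and are a description only. Lrp11, a receptor-related membrane protein gene on chromosome 10, read 6.59, 6.87, 6.86 and 6.67 in cKO 1 to 4 and 4.98, 5.42, 5.12 and 5.41 in WT 1 to 4.

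Akr1c18, the enzyme that inactivates progesterone by reducing its side chain, behaved differently from its neighbour Akr1c13. It read 6.83, 6.40, 7.73 and 7.09 in cKO 1 to 4 and 7.56, 6.73, 5.87 and 6.96 in WT 1 to 4 (1419136_PM_at, log2). The groups overlapped almost fully, with the highest array in cKO and the lowest in WT. The means were 7.01 ± 0.56 and 6.78 ± 0.70, a difference of 0.23 (SE 0.37, 95% interval -0.59 to 1.06) that did not pass the test, with an interval that holds both no difference and one of about 2-fold. The difference was 0.49 without WT 1, 0.44 without cKO 2, 0.50 without both cKO 2 and WT 4, -0.01 without cKO 3 and -0.07 without WT 3.

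The spread of Akr1c18 within the groups was itself large: only 18 of 45037 probe sets had a larger SD within groups than its 0.63. This spread was not that of Akr1c13, whose deviations correlated with those of Akr1c18 at r = -0.01 over 8 arrays. By the same search as for Akr1c13, done for Akr1c18 after its values were seen, the closest gene was Dclk1, a doublecortin-like kinase gene, with r = 0.80 and the next at 0.70, so no gene among the 353 followed it closely.

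The remaining 5 probe sets read between 3.43 and 4.94 in all arrays, in a table whose lowest value is 3.06, and were not shown to lie above background. Akr1c19, which lies between Akr1c13 and Akr1c12, stood at 4.36 to 4.61 in cKO and 4.37 to 4.46 in WT, a difference of 0.07 (SE 0.06). Akr1c14, a dehydrogenase of the steroid 3-alpha position, stood between 3.43 and 3.53 in all 8 arrays. Akr1c6, known from liver as a 17-beta-hydroxysteroid dehydrogenase, stood at 4.71 to 4.85 in cKO and 4.72 to 4.94 in WT, a difference of -0.05 (SE 0.06). The 2 probe sets of Akr1c20 differed by 0.04 (SE 0.05) and 0.01 (SE 0.06). The groups overlapped at all 5, and the 95% intervals of the 5 differences together ran from -0.19 to 0.21. Leaving out single arrays kept the 5 differences between -0.082 and 0.12. A change in a gene whose signal is at background would not be seen here.

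Whether genes beside the cluster differed too was asked of the nearest genes with a probe set, 9 in front of Akr1c14 and 10 behind Akr1c21. Of their 40 probe sets 0 passed limma's test, with 3 higher and 2 lower (12.5%) at an unadjusted p under 0.05, where 0.466% and 7.98% of all probe sets did so. The plain pooled-variance test called 0 as well. Their differences ran from -0.27 to 0.28 with a median of 0.01 (log2). No gene lying between Akr1c genes and outside the family had a probe set.

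The 3 neighbours with the largest differences were Calml3, Pitrm1 and Akr1e1. Calml3, a calmodulin-like protein gene of epithelia, stood at 0.28 (SE 0.12, limma adjusted p = 0.568, n = 4 each). Pitrm1, a mitochondrial peptidase gene, stood at -0.27 (SE 0.06, limma adjusted p = 0.144), and its groups did not overlap. Akr1e1, an aldo-keto reductase gene and the nearest measured gene behind Akr1c21, read 9.82 ± 0.10 in cKO and 9.57 ± 0.18 in WT, a difference of 0.25 (SE 0.09, limma adjusted p = 0.478). Without WT 4, whose value of 9.84 was the highest of WT, Akr1e1 passed at 0.34 (limma adjusted p = 0.0485), and without both cKO 2 and WT 4 at 0.37 (0.0330). Leaving out any other single array did not let Akr1e1 pass, and without WT 3 it stood at 0.21 (limma adjusted p = 0.938).

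**Figure D4:**
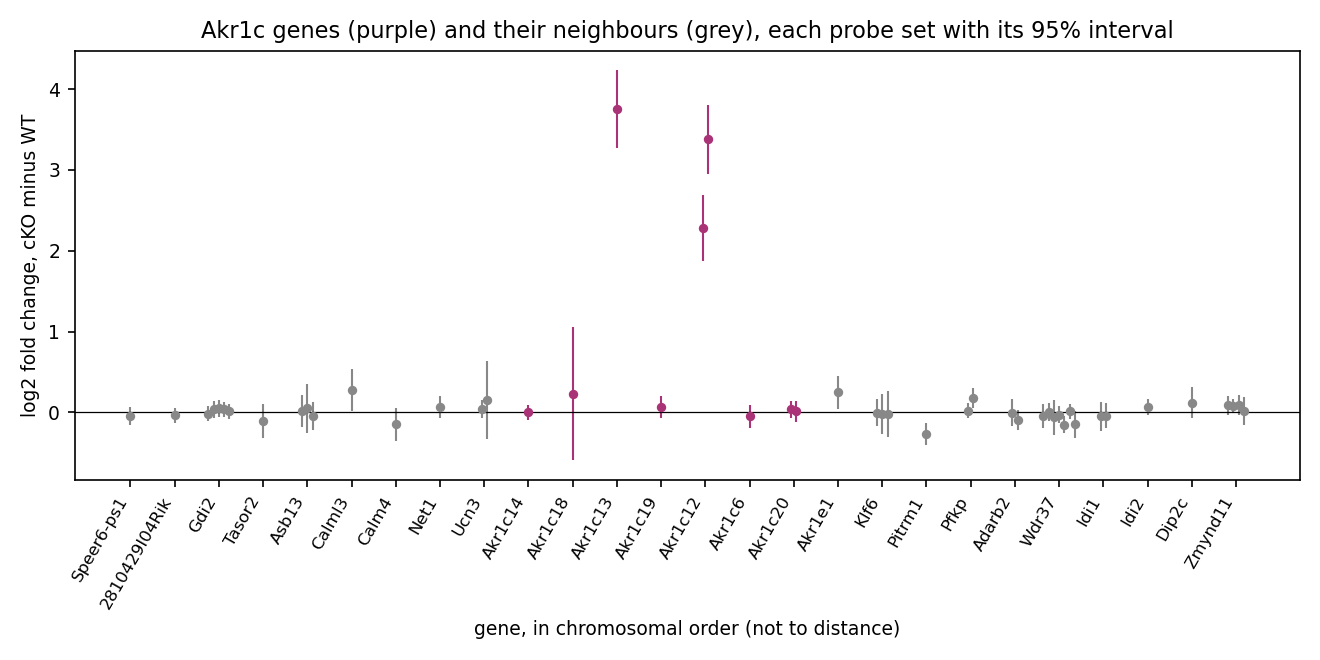
Difference cKO minus WT (log2) of each probe set with its 95% interval, for the Akr1c genes (purple) and the nearest measured genes on both sides (grey), in chromosomal order and not to distance. Akr1c13 at 3.75 and Akr1c12 at 2.28 and 3.38 stand apart from Akr1c19 between them and from all 40 neighbouring probe sets, which lie between -0.27 and 0.28.

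Genes that work in the same pathways were examined in 7 lists with 210 probe sets of 127 genes. None passed limma's test over all probe sets, where 0.466% of all probe sets did. At an unadjusted p under 0.05, 20 were higher and 12 lower, or 15.2%, against 7.98% of all probe sets. The shares of single lists below stand beside the same 7.98%. Their counts of probe sets whose groups did not overlap stand beside 4.89% of all probe sets. The plain pooled-variance test called 0. The median difference was 0.01 (log2), as over all probe sets.

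**Figure D5:**
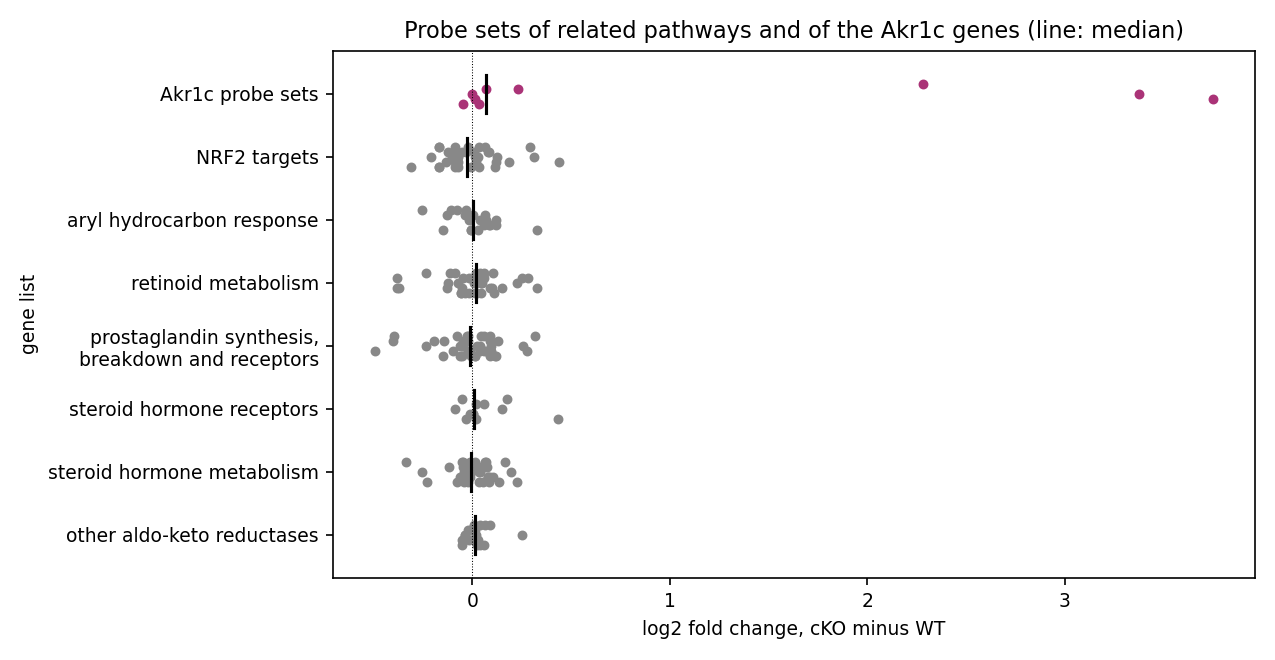
Difference cKO minus WT (log2) of each probe set in 7 lists of related genes (grey) and of the 9 Akr1c probe sets (purple); black lines are medians. All listed probe sets lie between -0.49 and 0.44, while 3 Akr1c probe sets lie above 2.

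Among other aldo-keto reductases, of 20 probe sets of 10 genes 0 passed, and 1 (5%), that of Akr1e1, had an unadjusted p under 0.05. The groups overlapped at all 20. Akr1b8, a reductase of the aldose reductase branch, stood at 0.09 (SE 0.15), and Kcnab2, a potassium channel subunit with the same fold, at 0.06 (SE 0.04). Akr1b8 ranged from -0.036, without WT 4, to 0.19, without WT 2, so its sign rests on single arrays.

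In steroid hormone metabolism 0 of 43 probe sets of 27 genes passed, with 5 higher and 1 lower at an unadjusted p under 0.05. Hsd17b7, an enzyme of cholesterol and estradiol synthesis, stood at -0.34 (SE 0.08, limma adjusted p = 0.197), with its groups apart, and passed without WT 4 at -0.41 (limma adjusted p = 0.0296). It passed with no other single array left out, and without WT 1 its limma adjusted p was 0.514. Cyp17a1, the steroid hydroxylase and lyase, stood at -0.25 (SE 0.12), at -0.16 without WT 4 and at -0.084 without both cKO 2 and WT 4. Hsd17b11 stood at 0.23 (SE 0.09). Of the 12 probe sets of 6 steroid receptor genes 0 passed, and 3 (25%) were higher at an unadjusted p under 0.05. The groups did not overlap at 1. Esr1, an estrogen receptor, stood at 0.43 (SE 0.15, limma adjusted p = 0.428), the glucocorticoid receptor gene Nr3c1 at 0.18 (SE 0.08) and the mineralocorticoid receptor gene Nr3c2 at -0.09 (SE 0.08). Leaving out single arrays moved Nr3c1 down to 0.11, without WT 4, and Nr3c2 from -0.045, without WT 3, to -0.14, without WT 4.

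Among prostaglandin genes 0 of 42 probe sets of 25 genes passed, with 4 higher and 3 lower (16.7%) at an unadjusted p under 0.05. The groups did not overlap at 4. Slco2a1, the transporter that takes prostaglandins into cells, read 8.54 ± 0.06 in cKO and 8.22 ± 0.09 in WT at 1450032_PM_at, a difference of 0.32 (SE 0.06, limma adjusted p = 0.0587). The groups of this probe set did not overlap. It passed without WT 2 at 0.35 (limma adjusted p = 0.0442) but with no other single array left out, and without WT 1 its limma adjusted p was 0.228. Ptgs2, the inducible cyclooxygenase, stood at -0.49 (SE 0.21, limma adjusted p = 0.595) and passed without WT 4 at -0.72 (0.0283). Hpgd, which breaks prostaglandins down, stood at -0.40 (SE 0.14, limma adjusted p = 0.456) and passed without WT 4 at -0.56 (0.00148). Hpgd passed with no other single array left out, and without WT 3 it stood at -0.35 (limma adjusted p = 0.915).

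In retinoid metabolism 0 of 37 probe sets of 27 genes passed, with 4 higher and 3 lower (18.9%) at an unadjusted p under 0.05. The groups did not overlap at 2. The alcohol dehydrogenase gene Adh1 stood at -0.38 (SE 0.16), the retinoic acid binding protein gene Crabp2 at -0.38 (SE 0.11) and Cyp26b1, which degrades retinoic acid, at -0.37 (SE 0.27). Adh1 stood at -0.24 without cKO 2. Cyp26b1 stood at -0.17 without cKO 4, -0.56 without cKO 2, -0.59 without WT 4 and -0.77 without both cKO 2 and WT 4. Of the aryl hydrocarbon response 0 of 21 probe sets of 11 genes passed and 0 had an unadjusted p under 0.05. The groups overlapped at all 21. Cyp1b1, a cytochrome that activates DMBA, stood at 0.33 (SE 0.23), Tiparp, a target of the receptor, at -0.26 (SE 0.15), and Ephx1, the epoxide hydrolase that forms dihydrodiols, at 0.12 (SE 0.05). Cyp1b1 stood at 0.18 without WT 2, 0.55 without WT 4 and 0.64 without both cKO 2 and WT 4. Tiparp stood at -0.41 without WT 4 and passed without both cKO 2 and WT 4 at -0.49 (limma adjusted p = 0.0190).

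Targets of NRF2, a regulator of which human AKR1C genes are known targets, were examined last. Of 36 probe sets of 22 genes 0 passed, with 3 higher and 5 lower (22.2%) at an unadjusted p under 0.05 and a median of -0.03 (log2). The groups did not overlap at 8. Gclm, a subunit of the enzyme that makes the glutathione precursor, stood at 0.44 (SE 0.09, limma adjusted p = 0.108), with its groups apart, and passed without cKO 4 at 0.52 (limma adjusted p = 0.0361). No other single array left out let Gclm pass, and without WT 3 its limma adjusted p was 0.348. Me1, the malic enzyme, stood at 0.31 (SE 0.14), and Gsta4, a glutathione transferase, at -0.31 (SE 0.30). Gsta4 stood at -0.12 without WT 2, -0.11 without WT 3, -0.58 without WT 4 and -0.65 without both cKO 2 and WT 4.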

How the data were processed

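Expression was measured on 1-colour oligonucleotide arrays. The deposited log2 values, 1 per probe set, come from RMA according to the submitters' processing notes, which state neither version nor settings. The log base was inferred from their range, 3.06 to 13.2. RMA equalises the distributions of arrays, so a shift of all genes would not be seen. Of 45141 rows, 104 control probe sets were left out; the platform annotation gives 1 gene to 28898 of the 45037 tested, several to 551 and none to 15588, and 28689 Entrez numbers were found in a reference gene table (GRCm38.p6) that supplied current symbols and gene order. Dim probe sets were kept. Arrays give no read depth, so their number, 4 per group, limits the precision. Every sample is labelled with 25 ng of RNA, 17 amplification cycles and 8 µg of cDNA. What the amplification adds to the spread or to the fold changes was not tested.

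The groups were compared over all probe sets in limma 3.58.1 under R 4.3.3 (lmFit, then eBayes), two-sided, at a Benjamini-Hochberg adjusted p of 0.05; the procedure was tested on simulated data. The members, gene lists and tests were chosen with earlier results of these data known. Named are all members, Ehmt2, the 6 genes most like Akr1c13, and of the first-listed markers Krt5 and Cd207. Also named, at the probe set that changed most, are the 3 neighbouring genes and 3 genes per pathway list with the largest absolute change. Wdr37, Pfkp, Zmynd11, Dclk1, the genes with 3 or more CATTAG and second probe sets of Ptgs2 and Tiparp were named after their values were seen. The replicate numbers were not used to pair the samples in the main fit. Promoters are from RefSeq (GRCm38.p6), with 7 of the 8 genes matched, and were aligned with Biopython 1.88 (global; match 1, mismatch -1, gap opening -2, extension -0.5; end gaps not counted). The alternatives tried were a block for the replicate number, other variance priors, array weights, other normalisations, a filter on dim probe sets, 1 probe set per gene, a plain test and leaving out arrays. Plots were drawn with matplotlib 3.10.9.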

Additional observations from a re-analysis of the deposited data

Results flagged for a closer look

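Among 64 groups of 4 arrays of members and named genes, 6 held an array whose gap to the nearest other exceeded Dixon's 95% critical value for 4 values, as a share of the group's range; chance alone flags about 1 group in 20. None of the 9 Akr1c probe sets was among them. In WT, WT 4 was the array apart in 4 genes: Akr1e1 at 9.84 (next 9.50), Hpgd at 5.05 (next 5.66), Cyp26b1 at 6.55 (next 7.39) and Tiparp at 9.37 (next 9.96). In cKO, cKO 1 stood apart in Nr3c2 at 5.10 (next 4.93) and cKO 4 in Gclm at 7.32 (next 7.61).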

How the results depend on the processing

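The 3 Akr1c probe sets that passed did so under each of the alternatives that kept them. With 1 probe set per gene 2 of 7 members passed, because 1 probe set then stands for Akr1c12. Leaving out single arrays, the difference was 3.60 to 3.89 for Akr1c13 and 2.16 to 2.41 and 3.22 to 3.47 for the 2 probe sets of Akr1c12, and the count stayed at 3. With array weights the difference of Akr1c18 was 0.63 (limma adjusted p = 0.442). The number of neighbouring probe sets called was 2 with array weights, 0 to 1 when single arrays were left out and 1 with cKO 2 and WT 4 both left out (this alternative was chosen after seeing the data). The number of listed pathway probe sets called was 8 with array weights, 1 with cyclic loess (Slco2a1), 0 to 4 when single arrays were left out and 8 without both cKO 2 and WT 4. Over all probe sets 210 passed in the main fit, 758 with array weights, 132 among probe sets with a mean above the median, where fewer probe sets were tested, 52 with the plain test, 104 to 356 when single arrays were left out and 657 without both cKO 2 and WT 4. The difference of Akr1b8 (probe set 1448894_PM_at, log2) was 0.09 and turned to -0.049 with array weights, to -0.036 without WT 4 and to -0.075 without both cKO 2 and WT 4; leaving out single arrays gave -0.036 to 0.19. The cause of these moves was not tested. With the replicate number as a block 3 Akr1c probe sets passed, with 0 neighbouring and 0 listed ones and 175 of all probe sets. The deviations of same-numbered arrays correlated at 0.13, 0.22, -0.62 and 0.37. These values cannot show whether same-numbered samples shared more than a number.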
